A study of Mus musculus with 10 samples.

Results

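The regenerating islet-derived (Reg) genes of the mouse, *Reg1*, *Reg2*, *Reg3a*, *Reg3b*, *Reg3d*, *Reg3g* and *Reg4*, were followed in the islet RNAseq data of 2 obese mouse strains. They were chosen by gene name and are 7 of the 35214 genes in the gene table and 5 of the 167895 events in the splicing table. NZO/HiBomDife (NZO) mice are a polygenic model of obesity that becomes diabetic, and C57BL/6J.V-Lepob/ob (B6-ob/ob) mice are obese through a mutation of the *Leptin* gene and stay free of diabetes, so that strain background and the *Leptin* mutation cannot be told apart in their comparison. Male mice of both strains, 5 NZO and 5 B6-ob/ob, lived on a carbohydrate-free high-fat diet up to 18 weeks of age and were then given carbohydrates for 2 days. Islets were isolated from each mouse and each gave its own library, while the sample labels name pancreas as the source.

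Reg proteins are small secreted proteins built around a C-type lectin-like domain. In the healthy pancreas the Reg1 and Reg2 proteins are made mainly by acinar cells, the exocrine cells that surround the islets, and Reg genes are known to be switched on in injured or inflamed pancreas and in regenerating islets, from which the family has its name. The Reg3 proteins are best known from the gut, where Reg3b and Reg3g act as antibacterial lectins under the control of interleukin-22 and STAT3. Reg4 is mainly a protein of the intestinal epithelium.

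What the values stand for limits what can be said. The gene table holds 1 level for each gene, the authors' mean normalized count (a count scaled for library size by the authors with DESeq2 and averaged over all 10 libraries), so a level here belongs to both strains together. The splicing table holds the PSI (proportion spliced in, from 0 to 1) for each strain with its mice pooled. The gene table also holds the authors' own comparison of the strains, which was not used here, so no level is given by strain. None of the values used has a replicate spread, they allow no test between the strains, and the depth of each mouse is unknown. The β-cell genes *Ins1*, *Ins2* and *Iapp* took 28.4% of the mean normalized counts summed over all genes. Markers of β-, α-, δ- and PP-cells were all present, as were those of endothelial, stellate and ductal cells, and none of the 55 cell type markers was listed at 0. Of the 35214 genes, 12513 were listed at 0.

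Of the 7 members 6 sit in 1 tight cluster, and all have a coding exon of the same length. On GENCODE M21 (GRCm38), 6 of the 7 genes lie within 98.2 kb of chromosome 6, between 78370657 and 78468872, in the order *Reg3b*, *Reg3d*, *Reg3a*, *Reg2*, *Reg1* and *Reg3g*, with *Reg3d* and *Reg3g* on the minus strand. *Reg2* (ENSMUSG00000023140) spans 78395623 to 78408106 and *Reg1* (ENSMUSG00000059654) spans 78422711 to 78428667, both on the plus strand, and *Reg3b* (ENSMUSG00000071356) spans 78370657 to 78373466. *Reg4* lies apart on chromosome 3, from 98222156 to 98236748. Within 100 kb of the cluster the annotation holds 2 further genes, the processed pseudogenes *Gm21392* and *Gm6072*, and both were listed at 0. In the reference transcript of each member, exon 4 of 6 is coding over its whole length and has 138 nt. It codes for a stretch of the lectin-like domain and is the exon measured for splicing in both *Reg1* and *Reg2*. The sequences below, from the GENCODE M21 transcripts of the C57BL/6J reference, show it for both of these genes, for *Reg3b* as the Reg3 gene of the highest level, and for the distant *Reg4*. Capitals mark the 31 bases that are the same in all 7 genes.
Reg1 exon 4 (chr6:78427325-78427462, plus strand): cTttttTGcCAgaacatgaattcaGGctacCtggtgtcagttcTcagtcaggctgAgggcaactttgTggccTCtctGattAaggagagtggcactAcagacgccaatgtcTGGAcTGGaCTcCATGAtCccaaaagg
Reg2 exon 4 (chr6:78406500-78406637, plus strand): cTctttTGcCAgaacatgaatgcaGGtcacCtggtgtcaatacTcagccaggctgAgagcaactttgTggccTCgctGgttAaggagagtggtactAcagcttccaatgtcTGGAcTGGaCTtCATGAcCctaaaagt
Reg3b exon 4 (chr6:78372088-78372225, plus strand): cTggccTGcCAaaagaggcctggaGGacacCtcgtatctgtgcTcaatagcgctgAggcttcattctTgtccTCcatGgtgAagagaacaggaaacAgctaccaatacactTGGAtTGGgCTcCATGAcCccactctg
Reg4 exon 4 (chr3:98231148-98231285, plus strand): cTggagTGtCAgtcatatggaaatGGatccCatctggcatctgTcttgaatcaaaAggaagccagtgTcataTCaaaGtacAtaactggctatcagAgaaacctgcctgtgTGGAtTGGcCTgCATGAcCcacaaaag

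Of the 31 bases common to the family, 15 stand in the last 27 bases of the exon. Set base against base without gaps, the exons of *Reg1* and *Reg2* were the closest of the 21 pairs with 87.0% identical bases. Among the 4 Reg3 genes identity ran from 60.9% for *Reg3b* and *Reg3d* to 79.7% for *Reg3b* and *Reg3g*. The exons of *Reg1* and *Reg2* matched those of the Reg3 genes at 54.3% to 62.3% of their bases, and the exon of *Reg4* matched the others at 38.4% to 43.5%.

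**Figure D1:**
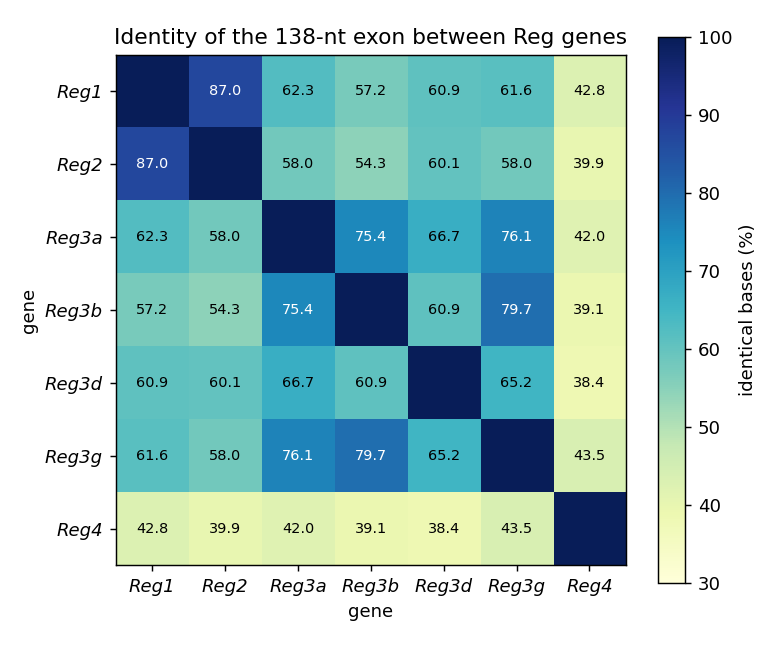
Identical bases (%) between the 138-nt exon of each pair of Reg genes, aligned without gaps; rows and columns are the genes and the colour scale runs from 30% to 100%. *Reg1* and *Reg2* share 87.0%, *Reg3b* and *Reg3g* 79.7%, and every pair with *Reg4* stays at or below 43.5%.

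*Reg2* differs from *Reg1* just before this exon. Exon 3 has 140 nt in *Reg2* and 119 nt in *Reg1*. With 1 insertion of 21 nt, or 7 codons, the exons matched at 94 of 119 bases (79.0%). Of 6 placements of the insertion that fit equally well, the capitals mark the one nearest to the 5′ end, bases 16 to 36 of the *Reg2* exon.
Reg2 exon 3 (chr6:78406136-78406275, plus strand): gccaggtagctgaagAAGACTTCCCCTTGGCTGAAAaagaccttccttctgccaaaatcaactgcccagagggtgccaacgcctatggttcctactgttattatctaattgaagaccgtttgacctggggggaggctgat
Reg1 exon 3 (chr6:78426913-78427031, plus strand): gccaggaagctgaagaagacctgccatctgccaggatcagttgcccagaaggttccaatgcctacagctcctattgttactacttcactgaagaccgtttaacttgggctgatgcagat

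These likenesses bear on how reads are placed. Over all annotated transcripts of the 7 genes, words of 31 bases were shared between members only by *Reg3b* and *Reg3g*, in 5 of 1120 words of *Reg3b* and 5 of 2164 of *Reg3g*. *Reg2* shared 70 of its 915 words (7.65%) and *Reg1* 51 of 895 (5.70%) with genes outside the family, and no word of *Reg3a*, *Reg3d* or *Reg4* was found in another gene. NZO alleles were not compared with this reference, and whether reads of NZO islets were placed less well on it was not tested.

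At the level of expression, *Reg2* and *Reg1* made up most of the family's RNA and the Reg3 genes were near the lower end of what was measured. The authors' mean normalized count was 54.1 for *Reg2* and 27.8 for *Reg1*, together 88.1% of the 93.0 of the whole family. In the Reg3 group it was 5.47 for *Reg3b*, 2.95 for *Reg3a*, 1.81 for *Reg3g* and 0.876 for *Reg3d*. *Reg4* was listed at 0.

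How few fragments lie behind the low members is seen from the sum over the 10 libraries, which was 541 normalized counts for *Reg2* and 278 for *Reg1*. It was 54.7 for *Reg3b*, 29.5 for *Reg3a*, 18.1 for *Reg3g* and 8.76 for *Reg3d*. Only *Reg2* and *Reg1* had a mean of at least 10, beside 15217 of all 35214 genes. Of the genes above 0, 33.0% were below 10. Among the 22701 genes above 0, whose median was 133, *Reg2* stood above 44.2% of the genes, *Reg1* above 39.9% and *Reg3b* above 28.8%. *Reg3a*, *Reg3g* and *Reg3d* stood above 24.4%, 21.1% and 16.0% of them.

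Levels of different genes were set side by side per length, as the mean normalized count per kb of the longest annotated transcript. On this scale *Reg2* had 77.5 per kb and *Reg1* 30.8 per kb, a ratio of 2.52. With the union of all exons as the length, the ratio was 1.84. *Reg3b* followed with 6.98 per kb and *Reg3a* with 3.58 per kb. *Reg3d* had 1.12 per kb and *Reg3g* 0.866 per kb, since the longest transcript of *Reg3g* has 2089 nt and that of *Reg3d* 782 nt. With the coding length in place of the transcript, *Reg3g* (3.47 per kb) stood above *Reg3d* (1.67 per kb). The order of the other members was the same with this length, and with the union of all exons. No spread over mice stands behind this order, and no 2 neighbours in it can be said to differ beyond it.

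**Figure D2:**
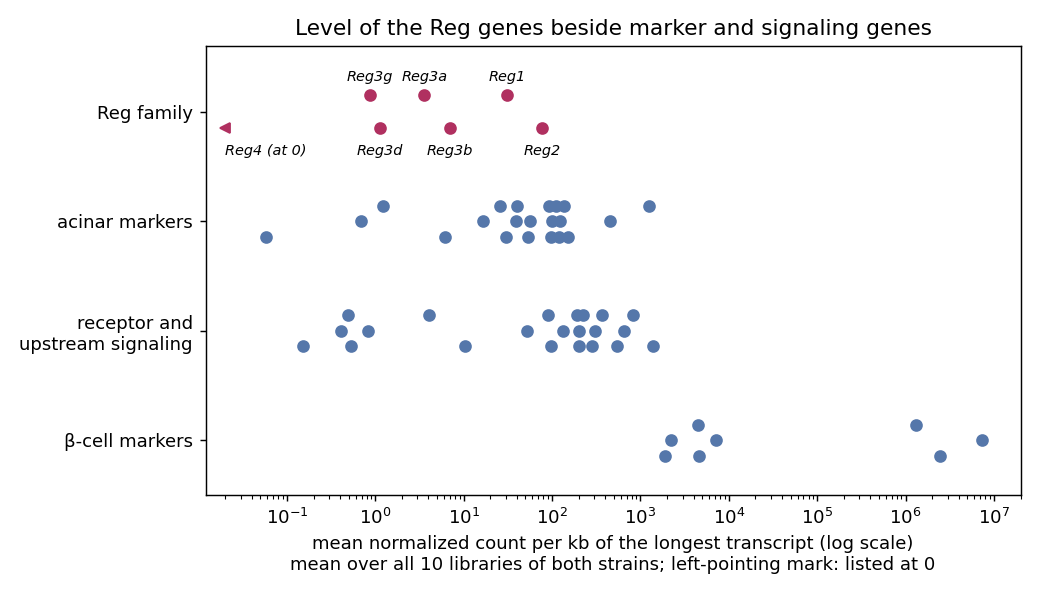
Mean normalized count per kb of the longest transcript, on a log axis, for the 7 Reg genes, the 21 acinar markers, 22 receptor and upstream signaling genes and 8 β-cell markers; each point is 1 gene, averaged over all 10 libraries of both strains. *Reg2* (77.5 per kb) and *Reg1* (30.8 per kb) lie among the acinar markers, whose median is 55.8 per kb, and *Reg4* is drawn at the left edge because it was listed at 0.

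In the healthy pancreas the Reg1 and Reg2 proteins are made mainly by acinar cells, so the acinar markers are given beside these levels. Which cells gave the *Reg1* and *Reg2* RNA in these islets was not tested. Of 21 such genes 17 had a mean normalized count of at least 10, beside 15217 of all 35214 genes, and none was at 0. The chymotrypsinogen gene *Ctrb1* had 458 per kb and the trypsinogen gene *Prss2* 137 per kb. *Bhlha15*, the gene of a transcription factor of secretory cells, had 1253 per kb, and its mean normalized count of 4378 made up most of the 6276 summed over the list. *Ptf1a*, which defines the acinar lineage, had a mean normalized count of 0.087. On the scale per kb the median of the list was 55.8, and 10 of its genes stood above *Reg2* and 14 above *Reg1*. The summed acinar level of NZO and of B6-ob/ob islets is not given, since the authors' comparison was not used, and its part in the level of the Reg genes was not tested. The number of acinar cells and the amount of RNA in each cell cannot be told apart in such bulk samples. Against the β-cells themselves the family is small: *Ins2*, an insulin gene, had 7273320 per kb.

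The genes through which Reg proteins are thought to act, and which control them, spread from 0.153 to 1379 per kb. Of 22 such genes, 17 had a mean normalized count of at least 10, beside 15217 of all 35214 genes. *Extl3*, whose product has been proposed as a receptor of Reg proteins, had 365 per kb. Among receptor chains for the interleukin-6 family, the interleukin-6 receptor gene *Il6ra* had 1379 per kb and *Il6st*, the gene of the shared chain gp130, had 542 per kb. *Lifr*, *Il11ra1* and *Osmr*, the genes of the chains for *Lif*, *Il11* and *Osm*, stood below *Extl3* with 307, 132 and 51.6 per kb. Downstream of them, the kinase gene *Jak1* had 821 per kb and the transcription factor gene *Stat3* 661 per kb. Of the ligand genes, *Il6* had 0.534 per kb, *Osm* 0.825 per kb and *Il22* 0.413 per kb, and *Il22ra1*, which encodes a receptor chain for interleukin-22, had 0.153 per kb. *Lif* and *Il11*, other ligands of the gp130 receptors, had 4.11 and 10.3 per kb. In this list 14 genes stood above *Reg2* per kb.

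Among 8 genes of secreted proteins that mark stressed exocrine or epithelial tissue, 4 had a mean normalized count of at least 10. Over all 35214 genes, 15217 did. Of the 8, 1, *Tff1*, was listed at 0. *Clu*, the gene of the chaperone clusterin, had 3066 per kb and was the only one above *Reg2*. *Lcn2*, the gene of the iron-scavenging protein lipocalin 2, had 32.1 per kb, close to the 30.8 of *Reg1*, and *Zg16*, a zymogen granule gene that is also in the acinar list, had 30.3 per kb. The trypsin inhibitor gene *Spink1* had 8.58 per kb. All 6 genes of a short cell cycle list stood above *Reg1*, with 4498 per kb for *Ccnd2*, a cyclin gene of β-cell replication, and 1428 per kb for its partner kinase gene *Cdk4*.

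All 7 members have a RefSeq promoter of 300 bases, from 250 bases before to 50 bases after the start (GRCm38.p6). The letters TTCNNNGAA, which STAT factors bind and which read the same on both strands, occurred in those of *Reg3b* and *Reg3d* and in 8.30% of all 32851 promoters. The letters CACCTG, an E-box searched on both strands, occurred in 5 members (*Reg2*, *Reg3a*, *Reg3b*, *Reg3d* and *Reg4*) and in 20.2% of all promoters. A match describes the letters of this window only. The 7 genes are related in sequence, so their matches are not independent, and whether the members hold these letters more often than other genes was not tested.

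The values used by strain are those of splicing, and there all 5 measured Reg exons had a lower PSI in islets of NZO mice. All 5 are cassette exons, which Whippet measures between the exons on either side, and all are coding over their whole length. They belong to *Reg1* (exon 4), *Reg2* (exons 3, 4 and 5) and *Reg3b* (exon 5). *Reg3a*, *Reg3d*, *Reg3g* and *Reg4* have no event in the table.

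In the authors' pooled values, exon 3 of *Reg2*, the one with the insertion shown above, was included with a PSI of 0.882 in NZO islets and 0.966 in those of B6-ob/ob mice. The difference, always given as NZO minus B6-ob/ob, was -0.0834 and was the largest of the 5, and 1.47% of all cassette exons in the table had a lower one. That share is over genes of all levels. In genes with a mean normalized count of 10 to 100, as for *Reg2*, 10.99% of exons were lower in NZO islets by over 0.05, beside 4.73% of all cassette exons. Exon 4 of *Reg2*, of 138 nt, stood at 0.940 in NZO islets and 0.971 in those of B6-ob/ob mice, a difference of -0.0314 and the smallest of the 5. For exon 5 of *Reg2*, of 112 nt, the values were 0.897 and 0.973, a difference of -0.0763. It is found with exactly the same ends in 1 of the 2 annotated transcripts, and exons with other ends were not counted. The 3 exons of this gene thus lay above 0.96 in B6-ob/ob islets and between 0.88 and 0.94 in NZO islets.

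Exon 4 of *Reg1*, the counterpart of the *Reg2* exon of the same length, is part of all 3 annotated transcripts. Its PSI was 0.876 in NZO islets and 0.948 in those of B6-ob/ob mice, a difference of -0.0725, which placed it lower than the *Reg2* counterpart in both strains. The exon of 127 nt of *Reg3b* (chr6:78372812-78372938, plus strand) is found with exactly these ends in 1 of 4 annotated transcripts. Whether the others hold its bases in an exon with other ends was not counted. It reached 0.877 in NZO islets and 0.930 in those of B6-ob/ob mice, a difference of -0.0528. Taken as 1 minus PSI, the values were 12.4% (NZO) and 5.18% (B6-ob/ob) for *Reg1*, and 11.8% and 3.44% for exon 3 of *Reg2*. Cassette exons in genes with a mean normalized count of 10 to 100 had a median PSI of 0.903 (NZO) and 0.912 (B6-ob/ob). A 1 minus PSI of several percent was thus usual at the level of these genes. The PSI of the *Reg1* exon and of exon 3 of *Reg2* was still below the lower quartile of this group in NZO islets (0.885). In B6-ob/ob islets the PSI of both was above the upper quartile (0.932). Whether a 1 minus PSI of this size stands for transcripts that lack the exon was not tested.

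**Figure D3:**
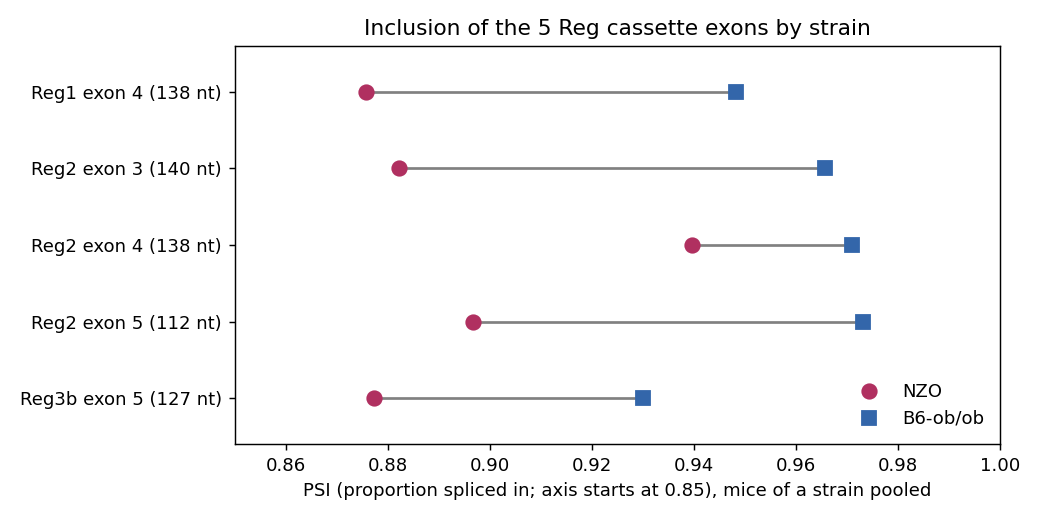
PSI (proportion spliced in, mice of a strain pooled) of the 5 Reg cassette exons in NZO (circles) and B6-ob/ob islets (squares), on an axis that starts at 0.85; grey lines join the strains. Every exon is lower in NZO islets, with differences from -0.0834 for exon 3 to -0.0314 for exon 4 of *Reg2*.

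Leaving out an exon of 138 nt keeps the reading frame, whereas leaving out 1 of those of 140, 112 or 127 nt shifts it. Exons 3, 4 and 5 of *Reg2* together have 390 nt, which is divisible by 3. Whether they are left out together cannot be read from the table.

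None of the 5 exons passed a limit of 0.1 on the absolute PSI difference, which 1.48% of the 110932 cassette exons in the table passed. With 0.05, 4 of 5 were lower in NZO islets by more than the limit, against 4.73% of all cassette exons. A lower PSI of any size in NZO islets, found in all 5, was common in the whole table, at 72.0% of cassette exons. The median difference over all cassette exons was -0.00267 and that over the 5 Reg exons -0.0725. The exons of 1 gene share their reads and are not independent, and 3 of the 5 come from *Reg2*.

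The PSI of cassette exons moved with the level of their gene. In genes with a mean normalized count over 1000, the median PSI in NZO islets was 0.992 and that in B6-ob/ob islets 0.994. In genes of 10 to 100, where *Reg1* and *Reg2* lie, the medians were 0.903 and 0.912. The *Reg1* and *Reg2* exons, at 0.948 to 0.973 in B6-ob/ob islets, were above the upper quartile of 0.932 of the genes of 10 to 100 in that strain. In NZO islets exon 4 of *Reg2*, at 0.940, was above the upper quartile of 0.923. The other values, 0.876, 0.882 and 0.897, were below the median of 0.903. Those of *Reg1* and of exon 3 of *Reg2* were also below the lower quartile of 0.885. In genes of 10 to 100, 10.99% of 7682 exons were lower in NZO islets by over 0.05. The *Reg3b* exon, in a gene below 10, was below the median of such genes in NZO islets (0.899) and above it in B6-ob/ob islets (0.902). Because the level is a mean over both strains, how many reads each strain gave for these exons is unknown, and the part of read depth in the difference was not tested.

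**Figure D4:**
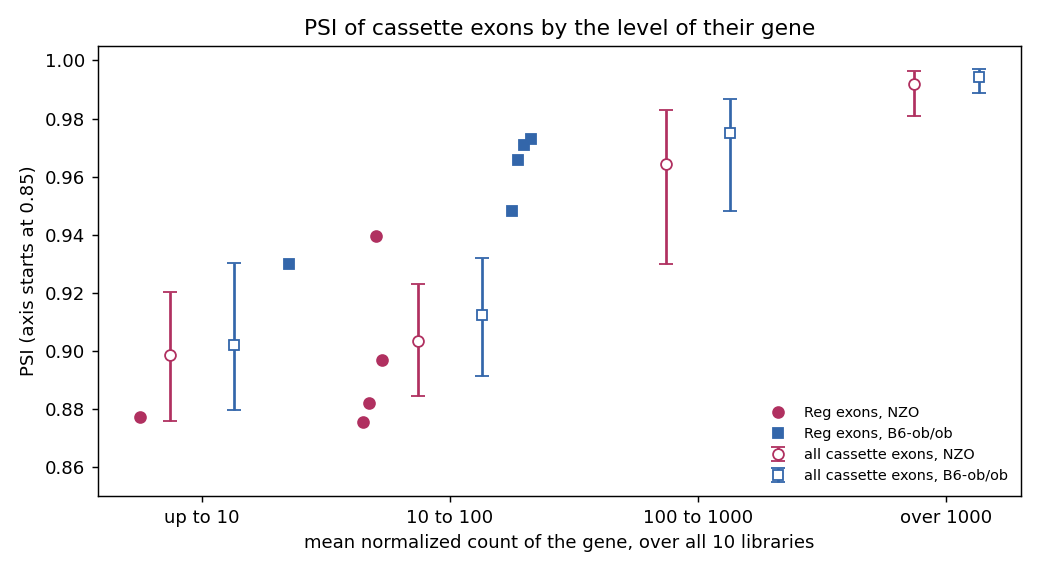
PSI (axis from 0.85) of all cassette exons grouped by the mean normalized count of their gene, as medians (open symbols) with bars from the lower to the upper quartile, in NZO (circles) and B6-ob/ob islets (squares); filled symbols are the 5 Reg exons, placed in the group of their gene. The medians rise from 0.899 and 0.902 in genes up to 10 to 0.992 and 0.994 in genes over 1000, and the B6-ob/ob values of *Reg1* and *Reg2* lie above the quartile bar of their group.

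Exons of the acinar markers stand beside these values as a description. Of 80 cassette exons in 17 of these genes, 61 were lower in NZO islets (76.2%, beside 72.0% of all cassette exons). By over 0.05, 36 were lower (45.0%, beside 4.73% of all cassette exons). Over all cassette exons in genes of 10 to 100 and of 100 to 1000, that share was 10.99% and 6.82%. The median PSI of the acinar exons was 0.921 in NZO islets and 0.968 in those of B6-ob/ob mice. Their median difference was -0.0413, and 2 passed the limit of 0.1. For the 5 Reg exons the medians were 0.882 and 0.966. Whether the Reg exons differ from those of the acinar enzymes was not tested, since pooled values give no error.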

How the data were processed

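Total RNA of isolated islets was sequenced by the authors in pairs of 125 bp reads. Per the labels and the paper's methods, the authors used Salmon and DESeq2 for levels and Whippet for splicing, on the Ensembl mm10 annotation, with versions not given in the sources used here. In the deposited gene table the mean signal of a gene is its normalized count averaged by the authors over all 10 libraries. In the deposited splicing table the PSI is a fraction for each strain, with its mice pooled. The other columns, fold changes with adjusted p-values and the ∆PSI with its probability, are the authors' own comparisons of the strains and were not used, nor were their sheets of significant genes and events. No column of values per mouse was used, so neither a model nor a test was run.

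Members were found by gene name. The rule for named genes took all members, every exon past a PSI difference of 0.1 and the exon of each member with the largest difference, up to 4 genes per list with the highest level per kb, and genes near the cluster. Exons 4 and 5 of *Reg2*, and *Extl3*, *Lifr*, *Il11ra1*, *Osmr*, *Il6*, *Osm*, *Il22*, *Il22ra1*, *Lif*, *Il11*, *Ptf1a*, *Spink1* and *Tff1*, were named beside it after their values were seen. The members and lists were chosen with earlier results of these data known. PSI differences were computed as NZO minus B6-ob/ob. Lengths, exons and transcript sequences come from GENCODE M21, which names 98.6% of the 35214 genes, and promoters from RefSeq (GRCm38.p6). The counting and alignment steps were tested on simulated data. Alternatives were the gene length, the background of the percentiles, the limit of the PSI difference, and the event types. Work was done in Python 3.11.15 with matplotlib 3.10.9.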

Additional observations from a re-analysis of the deposited data

How the results depend on the processing

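No replicate could be left out, and no paired analysis was possible because the files used here hold no value per mouse. Of 26 alternatives, 15 gave values within 1.5 times the reported ones. Some of these 15 could not have moved, so their number is no measure of stability. *Reg4* is at 0 with any length, and for *Reg1*, *Reg3a* and *Reg3d* the union of exons equals the longest transcript. All 5 Reg events are cassette exons, and an exon that fails a limit of 0.1 also fails 0.2. With the coding length, the level per kb was 56.3 for *Reg1*, 5.62 for *Reg3a* and 3.47 for *Reg3g*, as shorter lengths give higher values by construction. Against only those genes whose level reached 10, *Reg2* stood above 16.8% and *Reg1* above 10.3%. Among all listed genes, those at 0 included, *Reg1* stood above 61.2%, *Reg3b* above 54.1%, *Reg3a* above 51.3%, *Reg3g* above 49.1% and *Reg3d* above 45.9%. With a limit of 0.05, 4 Reg exons passed, and with 0.2, as with 0.1, none of the 5 did. No Reg exon had a mean PSI from 0.1 to 0.9, so that alternative gave no value. The depth of each mouse is unknown, and its effect on the members was not tested.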
